A study of Mus musculus with 61 samples.

Results

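Stembryos, or gastruloids, are balls of mouse embryonic stem cells in culture that elongate into a posterior body axis after a pulse of the Wnt agonist Chiron, an inhibitor of the kinase GSK-3. The wild-type time course of this RNA-seq series was examined over the window of axial elongation, with 2 libraries at 108 h, 2 at 120 h and 2 at 132 h after aggregation. The 4 later libraries were set against the 2 at 108 h, and each later stage was also taken apart. These are 6 of the 61 libraries of the series, and they were chosen by genotype and stage only. Of the 55052 genes in the table, the 11996 with a mean of at least 1 FPKM (a measure of fragment number corrected for transcript length and library size) either at 108 h or over 120 h and 132 h were tested. All 6 libraries share the wild-type genotype, the Chiron treatment from 48 h to 72 h, and the selection by the submitters of aggregates that were elongating. Each library is a pool of whole stembryos made from a commercial line of wild-type stem cells of 129/SVEV background, so that the values are averages over all cell types present. The study's methods speak of biological replicates in general, but the labels do not say which libraries came from separate cultures. The p-values therefore measure only the spread between libraries of the same condition, which may be technical. That spread was estimated over all 61 libraries, mutant lines and other stages included, and not from these 6 alone.

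The body axis lengthens from a tail bud in which neuromesodermal progenitors give rise to spinal cord and to presomitic mesoderm. Wnt and FGF signals keep the progenitors and the presomitic mesoderm immature, and retinoic acid made by somites opposes them. Presomitic mesoderm is cut into somites by a segmentation clock of Notch, Wnt and FGF targets, and the ventral part of each somite becomes sclerotome, the source of vertebrae and ribs. Hox genes are switched on in the order of their place in the clusters, posterior genes last. Markers of the expected tissues were present at 108 h: Tbx6, which specifies presomitic mesoderm, was at 59.2 and 79.1 FPKM, Meox1, a somite factor, at 298.8 and 314.2 FPKM, and Cdx2, a factor of the posterior axis, at 76.3 and 80.7 FPKM. Values of 2 libraries are given with replicate 1 first.

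The promoter sequence of Msgn1 is shown because Msgn1 is a presomitic gene on which the results turn. A window of 300 bases, from 250 before to 50 after the transcription start, was read from the RefSeq annotation of GRCm38.p6 and is written 5′ to 3′ on the gene's own strand. The capitals mark the 2 matches to a LEF/TCF motif, CTTTGA on either strand, which begin 202 and 143 bases before the start.
Msgn1, chr12:11208899-11209198, minus strand: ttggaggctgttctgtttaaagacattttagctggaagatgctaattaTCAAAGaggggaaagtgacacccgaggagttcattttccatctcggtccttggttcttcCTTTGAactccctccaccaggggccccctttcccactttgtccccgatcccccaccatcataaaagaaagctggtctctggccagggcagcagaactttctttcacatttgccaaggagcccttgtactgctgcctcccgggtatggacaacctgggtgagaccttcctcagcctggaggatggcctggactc
The motif was in 3 of the 17 windows of 16 matched presomitic genes and in 16% of all 32851 windows. A match is a description of the letters and not a binding site.

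The first library at 120 h stood apart and is treated before the results. Its level differed at least 2-fold from that of the second 120 h library in 694 of 11996 genes, against 284 genes between the 108 h replicates and 275 between the 132 h replicates. Among the lists of cell type markers, 12 of the 14 tested genes of endoderm and notochord and 12 of the 15 of endothelium and blood were at least 2-fold higher in replicate 1 than in replicate 2. The summed level of the endoderm and notochord list was 302.4 FPKM in replicate 1, against 58.7 to 94.6 FPKM in the other 5 libraries. That of endothelium and blood was 155.4 FPKM, against 33.5 to 59.4 FPKM. In 4 wild-type 120 h libraries outside the time course these sums were 34.4 to 229.3 FPKM and 22.2 to 35.6 FPKM. The endoderm and notochord sum was also high elsewhere in the time course, at 155.2 and 678.4 FPKM at 96 h and 267.8 and 297.4 FPKM at 144 h. In 120 h replicate 1 of the time course 12 of 15 central and 5 of 5 tested posterior Hox genes were at least 2-fold lower than in replicate 2. Kdr, the VEGF receptor of endothelial cells, was at 13.3 FPKM there and between 0.58 and 1.53 FPKM in the other 5, while Cdx4, a Cdx factor of the tail bud, was at 10.3 FPKM there and between 51.3 and 54.0 FPKM in the others. The plot of summed levels by list shows that this library was below 108 h for presomitic genes, like the other later libraries. It stood away from them for the Hox, endoderm, endothelial and spinal cord progenitor lists. For the last its log2 ratio to 108 h was -0.32, against 0.62, 1.82 and 1.18 in the other later libraries. Of the 11 tested spinal cord progenitor genes 6 were at least 2-fold lower in it than in 120 h replicate 2.

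**Figure D1:**
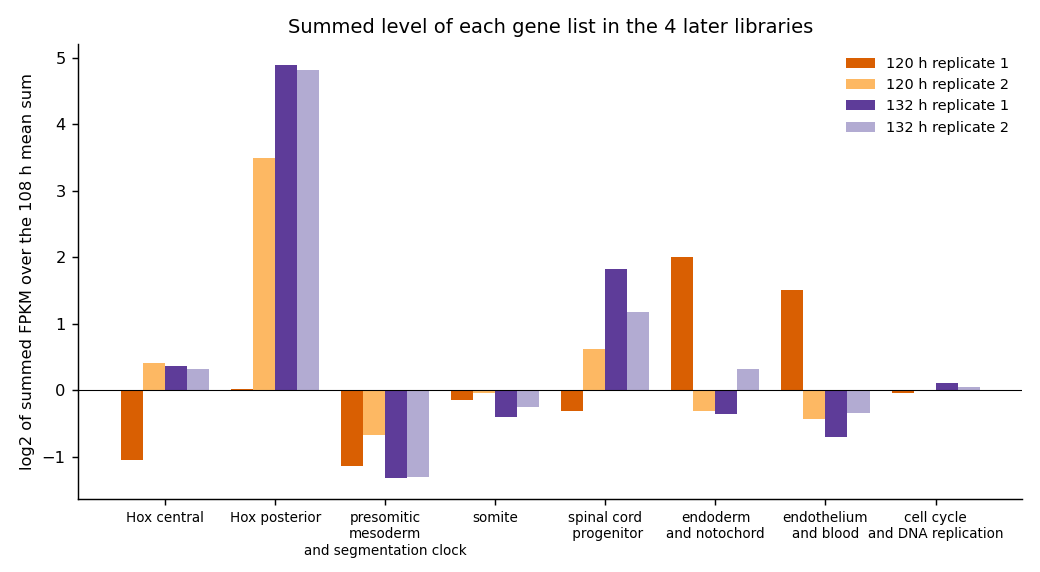
Summed FPKM of 8 gene lists in each of the 4 libraries at 120 h and 132 h, as log2 of the ratio to the mean sum of the 2 libraries at 108 h (bars from 0, 1 per library). The first 120 h library is at 2.00 for endoderm and notochord and 0.02 for posterior Hox genes, where the second 120 h library is at -0.31 and 3.48.

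Across the genome, 1254 genes were higher and 604 lower in the later libraries than at 108 h (limma, adjusted p under 0.05 by the Benjamini-Hochberg method), which is 10.5% and 5.04% of the genes tested, or 15.5% in all. Of these, 330 rose and 148 fell at least 2-fold. The median difference over all genes was 0.05 on the log2(FPKM + 0.1) scale, which is the scale of every log2 value given and which understates changes of low genes. At 120 h alone 926 genes were higher and 366 lower than at 108 h, 7.72% and 3.05% of those tested, and at 132 h 1151 were higher and 560 lower, 9.59% and 4.67%. Both stages were compared with the same 108 h libraries. The 720 genes called at both were 55.7% of those called at 120 h and 42.1% of those called at 132 h. Between 120 h and 132 h, 219 genes rose and 203 fell, 1.83% and 1.69% of those tested and 3.52% in all. The shares called in either direction were 10.8% at 120 h and 14.3% at 132 h.

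The number of genes called depended on which libraries shared the estimate of the spread and on single libraries. All 61 libraries entered the model, and with the 16 of the time course alone the joint comparison gave 1059 genes and with these 6 alone 437. The total of 1858 genes became 1779 without the first 120 h library but 732 without 108 h replicate 1, where the second 108 h library was assumed to vary like the rest. For 120 h against 108 h the total of 1292 became 624 without 120 h replicate 1, 519 without 108 h replicate 1 and 826 without 108 h replicate 2. For 132 h against 108 h the total of 1711 became 824 without 108 h replicate 1, 974 without 132 h replicate 1 and 1021 without 132 h replicate 2. For 132 h against 120 h the total of 422 became 65 without 120 h replicate 1, 1348 without 120 h replicate 2 and 38 without 132 h replicate 1. With median-ratio scaling in place of FPKM as deposited, the split moved to 1229 higher and 977 lower for the joint comparison, 967 and 654 at 120 h, 1087 and 907 at 132 h, and 261 and 315 between the later stages. With upper-quartile scaling the last became 187 higher and 302 lower.

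**Figure D2:**
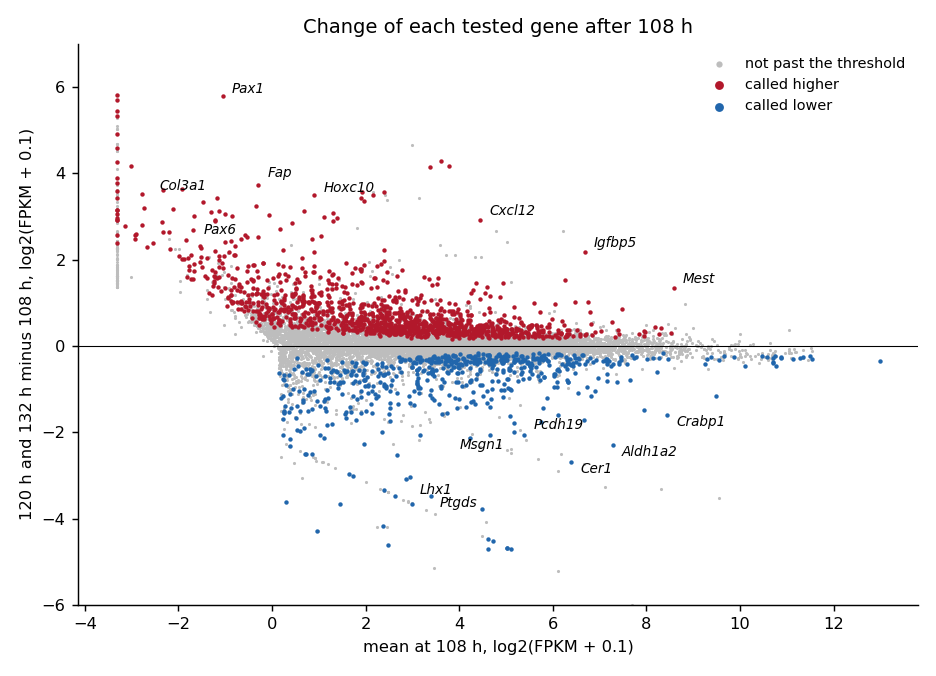
Each of the 11996 genes tested, with its mean level at 108 h (x axis, log2(FPKM + 0.1)) against the difference of 120 h and 132 h from 108 h (y axis, same scale). Red and blue points passed the threshold, the column at the left holds 127 genes listed at 0 in both 108 h libraries, and 8 genes lie outside the range drawn. Pax1 is the highest named point and Lhx1 and Ptgds are the lowest named points.

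The largest rise among tested genes at 5 FPKM or more in either group and above 0 in every library was that of Pax1, a paired box factor of the sclerotome (chr2:147361925-147375053). Pax1 was at 0.37 and 0.40 FPKM at 108 h, 25.1 and 15.0 FPKM at 120 h and 30.5 and 43.0 FPKM at 132 h. All 4 later libraries were far above both early ones, with a log2 difference of 5.79 ± 0.29 (SE, adjusted p = 1.49e-16), and the stages 120 h and 132 h did not differ past the threshold (adjusted p = 0.15). Other genes of the sclerotome and of connective tissue moved with it. Nkx3-2, a homeobox gene of the sclerotome, went from 0.11 and 0.09 FPKM to between 0.84 and 1.66 FPKM (2.65 ± 0.20, adjusted p = 4.09e-12). Pax9, a paralogue of Pax1, went from 0.10 and 0.32 FPKM to between 1.21 and 2.45 FPKM (2.69 ± 0.30, adjusted p = 4.47e-08). Scx, a factor of tendon progenitors, was at 1.10 and 2.43 FPKM and then between 4.43 and 10.5 FPKM (2.19 ± 0.38, adjusted p = 6.94e-05). For Pax1 and these 3 genes the lowest of the 4 later values was above the higher of the early ones.

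Of the 24 genes of the somite list 20 were tested, and 9 rose while 1 fell, against 10.5% and 5.04% of all genes. The list median was 0.48 against 0.05 over all genes. Besides the 4 genes above, those called higher included Meox2, Ebf2, Eya1 and Twist2. Of the 20 genes tested, 16 had a mean of 1 FPKM or more at 108 h and 4 were tested for their later level, among them Pax1, Nkx3-2 and Pax9, and the 4 therefore had to differ. The genes that mark newly formed and maturing somites as a whole were not among those called: Meox1 was between 250.3 and 319.0 FPKM in all 6 libraries, Tcf15, which makes somites epithelial, between 79.1 and 127.7 FPKM, and Pax3, of the dermomyotome, between 22.7 and 30.8 FPKM. The gene that fell was Aldh1a2, described with retinoic acid. In bulk samples a larger share of cells of a type and more RNA per cell cannot be told apart. The calls of Meox2 (adjusted p = 0.10) and Eya1 (0.12) were lost without 108 h replicate 1, that of Ebf2 (0.074) without 108 h replicate 2.

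Other large rises, chosen by size, were in Cxcl12, Igfbp5, Fap, Fmod and Col3a1. Cxcl12, a chemokine that guides migrating cells, went from 20.9 and 22.7 FPKM to 149.3 and 172.0 FPKM at 120 h and 151.9 and 192.5 FPKM at 132 h (2.92 ± 0.21, adjusted p = 2.05e-12). Igfbp5, which binds insulin-like growth factors, went from 87.9 and 118.0 FPKM to between 356.1 and 553.3 FPKM (2.18 ± 0.27, adjusted p = 3.71e-07). Both were already near their 132 h level at 120 h. Fap, a membrane protease of mesenchyme, rose from 0.65 and 0.78 FPKM to between 8.57 and 13.6 FPKM (3.74 ± 0.28), and Fmod, a collagen-binding proteoglycan, from 1.36 and 1.64 FPKM to between 10.96 and 16.4 FPKM (3.12 ± 0.19). Col3a1, a fibrillar collagen, went from 0.36 and 0.33 FPKM to 3.62 and 1.97 FPKM and then to 6.99 and 9.77 FPKM (3.44 ± 0.42, adjusted p = 2.58e-07). In the list of collagens and matrix genes 9 of 19 tested members rose and 2 fell, against 10.5% and 5.04% of all genes. The list median was 0.37. Without 108 h replicate 1 the counts were 4 and 0, without 108 h replicate 2 they were 5 and 1, and with the time course fitted alone 5 and 0. Sparc and Col2a1 were among those that rose, and Fn1, the fibronectin of the presomitic matrix, fell from 167.4 and 164.1 FPKM to 71.3 and 85.5 FPKM at 132 h (-0.84 ± 0.21, adjusted p = 0.0044). The call of Fn1 was lost without 108 h replicate 1 (adjusted p = 0.065).

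**Figure D3:**
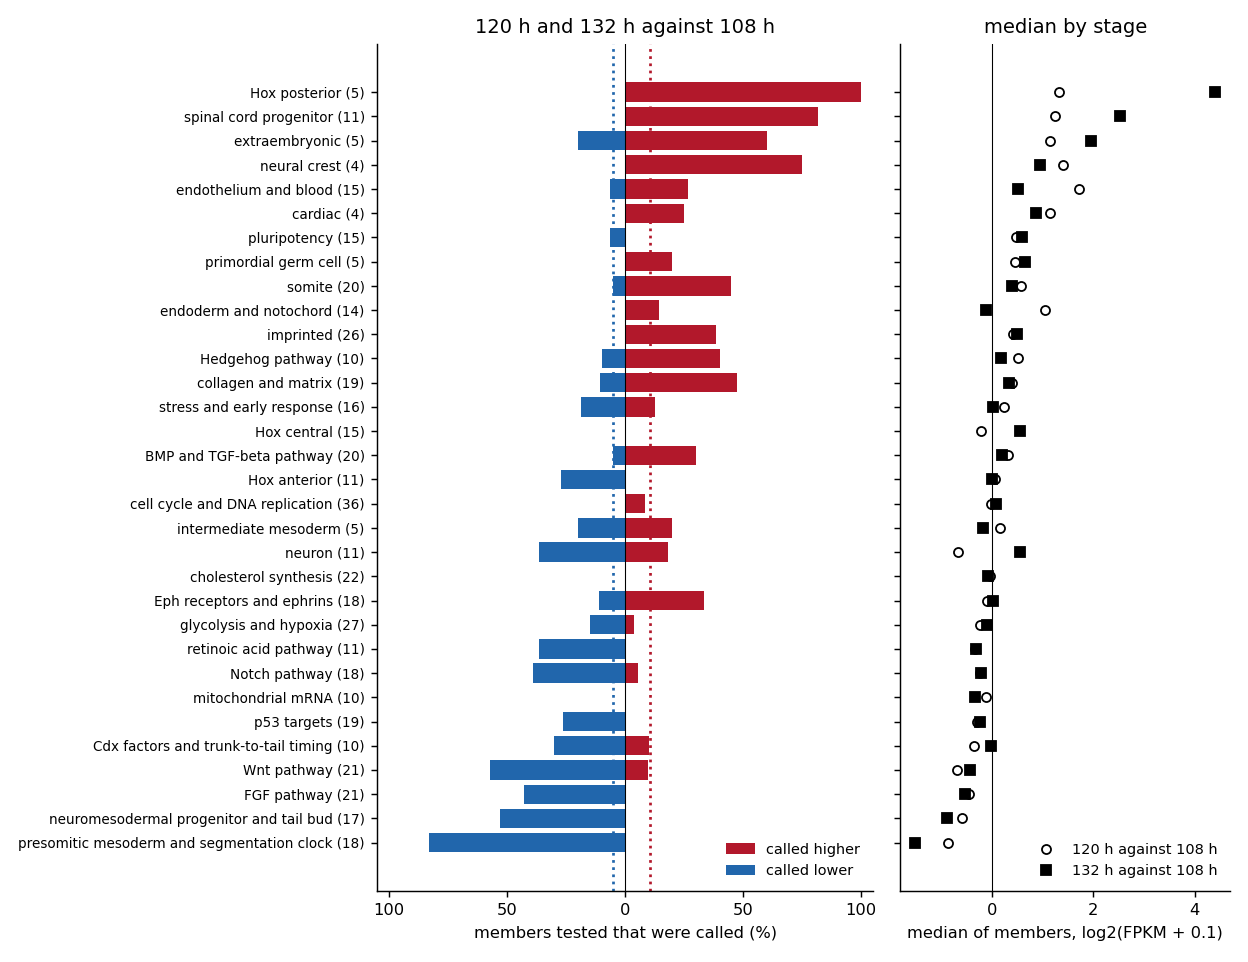
Left, share of the tested members of each list called higher (red, to the right) or lower (blue, to the left) at 120 h and 132 h against 108 h, with the number tested in brackets and dotted lines at the shares over all genes, 10.5% and 5.04%. Right, the median difference of the members at 120 h (circles) and 132 h (squares) against 108 h on the log2(FPKM + 0.1) scale. Presomitic genes are lowest at both stages.

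The opposite group was the presomitic mesoderm and its clock. Of 18 genes, all of which were tested, 15 fell and 0 rose, against 5.04% and 10.5% of all genes. The median was -1.19, and in 17 all 4 later libraries lay below both 108 h libraries, against 11.6% of all genes. Msgn1, a master factor of presomitic mesoderm whose promoter is shown above, was at 34.9 and 36.6 FPKM at 108 h, 15.5 and 16.4 FPKM at 120 h and 5.14 and 4.67 FPKM at 132 h. The 3 stages did not overlap, with a log2 difference of the later libraries from 108 h of -2.002 ± 0.44 (adjusted p = 0.0014). Tbx6 went from 59.2 and 79.1 FPKM to 28.8 and 38.6 FPKM and to 13.1 and 17.7 FPKM (-1.60 ± 0.29, adjusted p = 0.00018). The drop was graded in the same way for the Notch ligand Dll1, at 117.5 and 122.1 FPKM, then 63.5 and 88.5 FPKM, then 46.0 and 45.1 FPKM (-1.03 ± 0.18, adjusted p = 9.3e-05), which also fell between 120 h and 132 h (adjusted p = 0.046). The clock genes Dll3 (-1.44 ± 0.20), Lfng (-1.20 ± 0.23) and Hes7 (-1.18 ± 0.29) fell, the last not past the threshold without 108 h replicate 2 (adjusted p = 0.083). Axin2, a Wnt target of the clock (-0.77 ± 0.11), and Notch1, its receptor (-0.83 ± 0.16), fell less.

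The 3 presomitic genes that did not pass were Ripply2, Mesp2 and Hes1. The first 2, which set the somite border, had differences of -1.66 ± 0.70 (adjusted p = 0.11) and -1.42 ± 0.52 (adjusted p = 0.059). Hes1, a Notch target used in many tissues, was at 25.6 and 32.2 FPKM at 108 h and between 26.3 and 41.8 FPKM later (0.28 ± 0.16, adjusted p = 0.26). Cer1, a secreted inhibitor of Nodal and BMP at the front of the presomitic mesoderm, went from 93.4 and 74.9 FPKM to between 11.4 and 16.4 FPKM, but its SE of 0.92, which includes the spread in the rest of the series, left it near the threshold (-2.69, adjusted p = 0.043), and the call was lost on leaving out any of the 6 libraries (adjusted p from 0.056 to 0.25). Without the first 120 h library 12 presomitic genes fell, without 108 h replicate 2 the count was 8, and over the 6 libraries left out in turn it lay between 8 and 13. With the time course fitted alone 9 fell.

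Tail bud and neuromesodermal genes fell in part, beside 5.04% of all genes called lower and 10.5% called higher. Of 17 genes 9 fell and 0 rose, with a median of -0.83, and 7 fell and 2 rose when 120 h replicate 1 was left out. The count of genes that fell lay between 3, without 108 h replicate 2, and 11, without 120 h replicate 2, and was 5 without 108 h replicate 1. With the time course fitted alone limma called 0 of the 17, with 9 at an unadjusted p under 0.05. T, the brachyury factor of the streak and tail bud, was at 52.4 and 83.8 FPKM, then 39.2 and 58.4 FPKM, then 25.1 and 23.2 FPKM (-0.96 ± 0.23, adjusted p = 0.0037), a call lost without 108 h replicate 2 (-0.62, adjusted p = 0.18). Fgf4, Wnt3a, Wnt5b and Cyp26a1, which carry and limit the posterior signals, had differences from -1.35 to -1.23. Fgf4 was not called without 108 h replicate 1 (adjusted p = 0.097), nor Wnt3a (0.055) and Cyp26a1 (0.059) without 108 h replicate 2. Nkx1-2, a marker of neuromesodermal progenitors, was at 47.5 and 56.3 FPKM at 108 h, 10.1 and 43.9 FPKM at 120 h and 41.8 and 38.4 FPKM at 132 h. Only the first 120 h library was far below the rest, and the joint difference of -0.83 ± 0.34 did not pass (adjusted p = 0.097). Sox2, shared by these progenitors and the neural tube, was at 16.7 and 20.5 FPKM, then 9.13 and 39.7 FPKM, then 74.9 and 49.3 FPKM. It did not pass in the joint comparison (0.88 ± 0.38, adjusted p = 0.12) but passed without 120 h replicate 1 (1.40, adjusted p = 0.0046).

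Most called genes of the pathways that act in the tail bud were lower. Over all genes tested 5.04% were called lower and 10.5% higher. Of 21 tested Wnt pathway genes 12 fell and 2 rose, of 21 FGF pathway genes 9 fell and 0 rose, and of 18 Notch pathway genes 7 fell and 1 rose. Without 120 h replicate 1 these became 7 and 3, 4 and 0, and 6 and 1, and without 108 h replicate 1 the numbers that fell were 6, 2 and 5, without 108 h replicate 2 they were 4, 4 and 5. With the time course fitted alone 4, 1 and 5 fell, and 0, 0 and 1 rose. Several genes stand both in a pathway list and in the presomitic or tail bud list, so that these counts are not independent. Lef1, a nuclear effector of Wnt, went from 104.8 and 119.9 FPKM to 44.8 and 69.9 FPKM and to 42.7 and 47.5 FPKM (-1.16 ± 0.14, adjusted p = 2.38e-07). Spry4, a feedback inhibitor of FGF signalling, went from 8.22 and 8.08 FPKM to between 2.04 and 4.03 FPKM (-1.36 ± 0.24, adjusted p = 0.0001). The 2 Wnt pathway genes that rose were the secreted modulators Sfrp2 (0.79 ± 0.15) and Rspo1 (1.157 ± 0.22), and Rspo1 was lost without 108 h replicate 1 (0.58, adjusted p = 0.18). Heyl, a Notch effector, rose from 3.81 and 3.77 FPKM to between 10.6 and 18.0 FPKM (1.87 ± 0.31, adjusted p = 4.37e-05).

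The genes of retinoic acid that changed in the joint comparison were lower. Aldh1a2, which makes retinoic acid in somites, went from 164.2 and 147.6 FPKM to 73.2 and 27.2 FPKM at 120 h and 21.2 and 23.1 FPKM at 132 h (-2.31 ± 0.33, adjusted p = 4.57e-06). The first 120 h library lay between the early values and the other 3. Crabp1, a cytoplasmic binding protein, fell from 317.5 and 378.2 FPKM to between 93.6 and 150.7 FPKM (-1.60 ± 0.18). Of 11 tested genes of the pathway 4 fell and 0 rose in the joint comparison, against 5.04% and 10.5% of all genes. Crabp2, the other binding protein, was at 218.7 and 287.7 FPKM, then 109.8 and 358.6 FPKM, then 732.9 and 536.5 FPKM, and rose between 120 h and 132 h (1.66, adjusted p = 0.0052). In the joint comparison Crabp2 did not pass (0.49 ± 0.31, adjusted p = 0.32), and it passed without 120 h replicate 1 (0.92, adjusted p = 0.02).

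**Figure D4:**
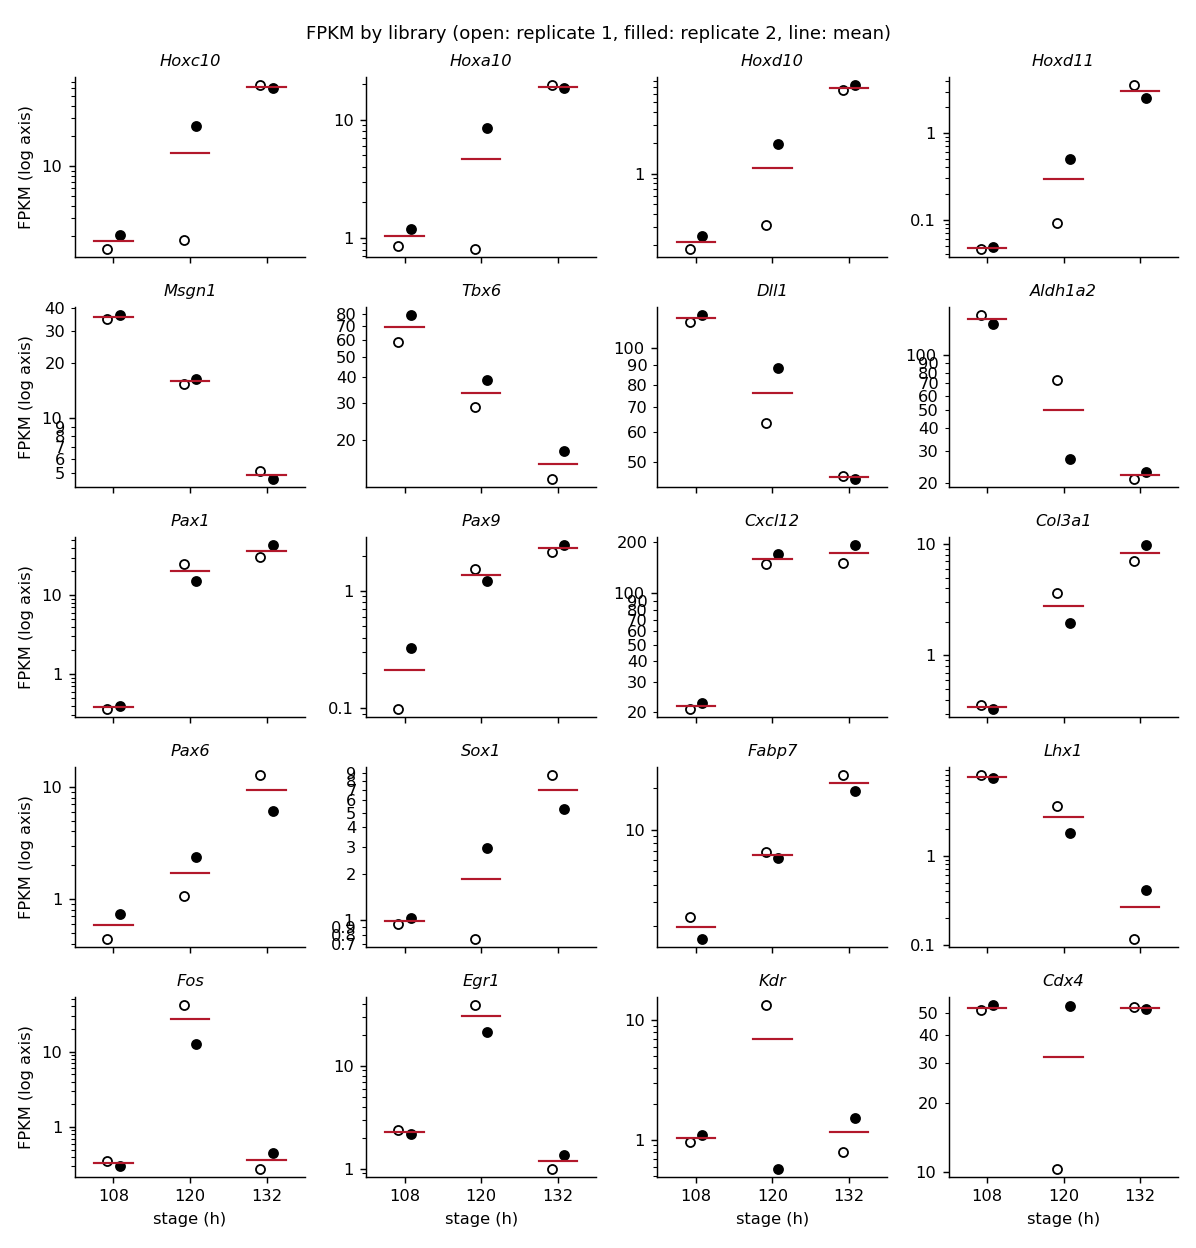
FPKM of 20 named genes in each of the 6 libraries (y axis, log scale, its range differs between panels; x axis, stage in hours; open circles replicate 1, filled circles replicate 2, lines the mean of both). The first 120 h library is near the 108 h level for Hoxc10, Hoxa10 and Sox1 and far from all others for Kdr and Cdx4, and Fos and Egr1 are high in both 120 h libraries.

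Among Hox genes only the tested posterior ones stood apart. Their median was 2.80 in the joint comparison, against 0.25 for central and 0.06 for anterior genes. At 120 h the 3 medians were 1.325, -0.20 and 0.07. In the joint comparison 5 of the 5 posterior genes tested rose, against 10.5% of all genes. Between 120 h and 132 h 5 rose, against 1.83%. Only Hoxc10 and Hoxa10 had a mean of 1 FPKM at 108 h; the other 3 were tested because of their late level and had to differ, and the 7 other posterior genes of the list were under 1 FPKM in every library. Hoxc10 (chr15:102966796-102971893) was at 1.49 and 2.06 FPKM at 108 h, 1.81 and 25.2 FPKM at 120 h and 64.3 and 60.7 FPKM at 132 h (3.50 ± 0.46, adjusted p = 9.28e-07). Hoxa10 was at 0.86 and 1.202 FPKM, then 0.81 and 8.53 FPKM, then 19.6 and 18.4 FPKM (2.71 ± 0.49, adjusted p = 0.00016). For both genes the first 120 h library was at the 108 h level and the second was on the way to the 132 h level. Hoxd10 went from 0.18 and 0.24 FPKM to 0.31 and 1.93 FPKM and to 6.52 and 7.31 FPKM. Hoxd11 was at 0.05 FPKM in both 108 h libraries, 0.09 and 0.50 FPKM at 120 h and 3.57 and 2.53 FPKM at 132 h. With the time course fitted alone 4 of the 5 posterior genes were called. All 5 posterior genes kept the call without the first 120 h library and on leaving out each of the other 5.

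Central and anterior Hox genes are given apart, beside 10.5% of all genes called higher and 5.04% called lower. Of 15 central genes limma called 0 in the joint comparison, with 3 at an unadjusted p under 0.05, and 1, Hoxa6, without 120 h replicate 1 (1.67, adjusted p = 0.017). Hoxb5 was called lower without 120 h replicate 2 (-0.65, adjusted p = 0.0078). Hoxb9, the most abundant, was at 106.6 and 124.2 FPKM at 108 h, 52.0 and 126.9 FPKM at 120 h and 139.5 and 133.1 FPKM at 132 h (-0.13 ± 0.50). Hoxc9 was at 6.11 and 7.85 FPKM, then 2.12 and 11.9 FPKM, then 19.98 and 16.4 FPKM (0.46 ± 0.48, adjusted p = 0.60). In both genes the first 120 h library was below all others. Of 11 anterior genes tested 3 fell, among them Hoxd1, from 13.1 and 14.2 FPKM to between 4.53 and 8.21 FPKM (-1.14 ± 0.23, adjusted p = 0.00053), and Hoxb1, from 72.5 and 88.5 FPKM to between 28.1 and 60.8 FPKM (-0.83 ± 0.16, adjusted p = 0.00048). With the time course fitted alone 1 of the 11 anterior genes fell. The difference of Hoxb1 was -0.55 without 120 h replicate 1 and still passed (adjusted p = 0.0029).

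Of 10 genes of Cdx factors and of trunk-to-tail timing, 3 fell and 1 rose, against 5.04% and 10.5% of all genes. Cdx1, an early Cdx factor, went from 52.0 and 55.5 FPKM to 20.7 and 18.9 FPKM and to 12.2 and 12.9 FPKM (-1.76 ± 0.26, adjusted p = 7.71e-06). Nr6a1, a nuclear receptor of the trunk phase, went from 69.3 and 61.3 FPKM to 38.3 and 36.4 FPKM and to 29.5 and 30.9 FPKM (-0.95 ± 0.13, adjusted p = 3.12e-06). Both fell in both later stages against 108 h. Lin28a, an RNA-binding protein of early progenitors, fell less (-0.41 ± 0.11), and not past the threshold without 108 h replicate 1 (adjusted p = 0.20). Nr2f1, a nuclear receptor of neural and mesodermal tissue, rose from 3.55 and 6.75 FPKM to between 17.0 and 38.6 FPKM (2.22 ± 0.41, adjusted p = 0.00021). Cdx2 and Cdx4 did not pass, at -0.52 ± 0.29 (adjusted p = 0.24) and -0.58 ± 0.66 (adjusted p = 0.64), and Gdf11, a signal of the trunk-to-tail transition, was between 15.8 and 32.2 FPKM in all 6 libraries (0.11 ± 0.28).

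Most tested spinal cord progenitor genes rose, and mainly late. Of 11 genes tested 9 rose and 0 fell in the joint comparison, against 10.5% and 5.04% of all genes. At 120 h 4 rose, at 132 h 9, and 7 between these stages. In 7 of the 11 all 4 later libraries lay above both 108 h libraries and in 2 below, against 18.5% and 11.6% of all genes. Only 6 of the 11 had a mean of 1 FPKM at 108 h. The rest were tested only through their later level, which favoured rises, and 14 of the 25 listed genes were too low to test. With the time course fitted alone 5 rose and 0 fell. Pax6, a factor of the dorsal and intermediate neural tube (chr2:105668900-105697364), was at 0.44 and 0.74 FPKM at 108 h, 1.06 and 2.38 FPKM at 120 h and 12.7 and 6.04 FPKM at 132 h (2.52 ± 0.41, adjusted p = 2.71e-05). Fabp7, a lipid-binding protein of neural progenitors, was at 2.32 and 1.63 FPKM, then 6.85 and 6.27 FPKM, then 24.8 and 19.01 FPKM (2.56 ± 0.23, adjusted p = 3.91e-10). Sox1, a pan-neural factor, was at 0.94 and 1.04 FPKM, then 0.76 and 2.96 FPKM, then 8.75 and 5.29 FPKM (1.62 ± 0.37, adjusted p = 0.0021). The 132 h libraries were above all others for the 3 genes, and for Sox1 the first 120 h library was below both 108 h libraries. Pax7, of the dorsal neural tube and dermomyotome, rose at both stages, from 1.25 and 1.66 FPKM to 3.55 and 5.28 FPKM and to 9.17 and 8.44 FPKM (2.03 ± 0.23). Irx3 and Irx5 rose as well but were lost without 108 h replicate 1 (adjusted p = 0.093 and 0.21). Sox3 (1.11 ± 0.35, adjusted p = 0.026) was lost without either 108 h library, 120 h replicate 2 or 132 h replicate 1 (adjusted p from 0.10 to 0.21).

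Neuron genes went both ways, with 2 of 11 higher and 4 lower, against 10.5% and 5.04% of all genes. Nefl and Nefm, of the neurofilament, were the 2 called higher, and both calls were lost without 120 h replicate 1 (adjusted p = 0.12 and 0.063) and without either 108 h library. The largest of the differences was in Lhx1, a LIM homeobox gene of intermediate mesoderm and of interneurons, which went from 7.93 and 7.395 FPKM to 3.59 and 1.78 FPKM at 120 h and 0.12 and 0.41 FPKM at 132 h (-3.05 ± 0.41, adjusted p = 1.6e-06). Lhx1 fell again between 120 h and 132 h (-2.98, adjusted p = 0.00024), as did its antisense transcript Lhx1os (-3.85, adjusted p = 3.98e-07). The library kit keeps strand, but the program that estimated FPKM was run with default settings, which treat reads as unstranded, so that reads of the 2 genes cannot be told apart where they overlap. Ptgds, prostaglandin D synthase, went from 11.9 and 9.02 FPKM to 1.70 and 1.57 FPKM and to 0.63 and 0.25 FPKM (-3.49 ± 0.42, adjusted p = 1.87e-07). Foxh1, a partner of Smad proteins in Nodal signalling, went from 18.9 and 18.6 FPKM to 8.65 and 4.03 FPKM and to 2.68 and 3.39 FPKM (-2.12 ± 0.29). Pcdh19, a protocadherin, fell from 48.3 and 35.6 FPKM to 16.3 and 12.04 FPKM and to 6.30 and 7.74 FPKM (-2.06 ± 0.18) and was also lower at 132 h than at 120 h (adjusted p = 0.0052). In these 4 genes the values fell from stage to stage without overlap.

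Among the 3 stages, the immediate early genes Fos, Fosb and Egr1 were high at 120 h only. Fos, a subunit of the AP-1 factor induced within minutes of a stimulus, was at 0.36 and 0.30 FPKM at 108 h, 41.3 and 12.6 FPKM at 120 h and 0.28 and 0.45 FPKM at 132 h. The 2 libraries at 120 h were above the other 4, with a log2 difference of 5.75 from 108 h to 120 h (adjusted p = 1.32e-05) and of -5.65 from 120 h to 132 h (adjusted p = 7.99e-05). Egr1, a zinc finger gene induced in the same way, was at 2.39 and 2.18 FPKM, then 38.7 and 21.5 FPKM, then 1.00 and 1.37 FPKM. Fosb was at 0.06 and 0.05 FPKM, then 7.96 and 2.15 FPKM, then 0.02 and 0.06 FPKM. Fos and Fosb passed in the joint comparison through the 120 h libraries alone and Egr1 did not (1.35 ± 0.49, adjusted p = 0.055). The call of Fosb was lost without either 108 h library, 120 h replicate 1 or 132 h replicate 2 (adjusted p from 0.059 to 0.13). Of 16 genes of stress and early response 2 rose and 3 fell, against 10.5% and 5.04% of all genes. The 3 that fell, Chac1, Trib3 and Asns, are targets of the amino acid response. All 3 calls were lost without 120 h replicate 1 (adjusted p = 0.15, 0.12 and 0.068) and without either 108 h library (0.061 to 0.22), and those of Chac1 and Trib3 also without either 132 h library.

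In the list of endothelium and blood 4 of 15 tested genes rose and 1 fell in the joint comparison, and 1 rose and 1 fell without 120 h replicate 1. Over all genes tested 10.5% were called higher and 5.04% lower in the joint comparison. Only 5 of the 15 had a mean of 1 FPKM at 108 h. The other 10 were tested only through their later level, which favoured rises. Without 108 h replicate 1 limma called 0 genes, with 8 at an unadjusted p under 0.05. Without 120 h replicate 2 it called 10 higher and 1 lower, and with the time course fitted alone 0, with 6 at an unadjusted p under 0.05. Cldn5, a tight junction protein of endothelium, was at 0.59 and 0.40 FPKM at 108 h, 14.8 and 0.68 FPKM at 120 h and 0.96 and 1.35 FPKM at 132 h. Its difference of 1.81 ± 0.56 (adjusted p = 0.024) was 0.75 without the first 120 h library (adjusted p = 0.20) and 2.88 without the second. Plvap, of fenestrated endothelium, kept the call without that library (1.33 against 2.08, adjusted p = 0.028) and lost it without 108 h replicate 1 (adjusted p = 0.12). Of the list members too low to test, Gata1 was at no more than 0.05 FPKM and Hba-x was listed at 0 in all 6 libraries. Others were detected: Tal1 was at 0.51 and 0.46 FPKM at 108 h, 1.56 and 0.10 FPKM at 120 h and 0.06 and 0.12 FPKM at 132 h. Gata2 was highest in the first 120 h library, at 0.56 FPKM. The gene of the list that fell was Lmo2 (-0.99, limma, adjusted p = 0.02), a call lost without either 108 h library. In the list of endoderm and notochord 2 of 14 tested genes rose, among them Sorcs2 (1.00 ± 0.19), against 10.5% of all genes, and 8 of the 14 had a mean of 1 FPKM at 108 h. The number was 6 without 120 h replicate 2, 2 without the first 120 h library and 1 with the time course fitted alone. Sox17, of endoderm and endothelium, was at 10.8 FPKM in that library and between 1.00 and 2.24 FPKM in the other 5. The part of these markers in the other differences at 120 h was not tested.

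Of 26 tested imprinted genes 10 rose and 0 fell, with a median of 0.40, and 6 rose and 1 fell without 120 h replicate 1. Without 108 h replicate 1 the number that rose was 4, without 108 h replicate 2 it was 5, and with the time course fitted alone 6. Over all genes tested 10.5% were called higher and 5.04% lower in the joint comparison. In 13 of the 26 all 4 later libraries lay above both 108 h libraries and in 4 below, against 18.5% and 11.6% of all genes. Mest, a hydrolase-like protein of growing mesoderm, went from 382.6 and 384.5 FPKM to 926.4 and 848.3 FPKM and to 977.8 and 1155 FPKM (1.34 ± 0.26, limma, adjusted p = 0.00028). Dlk1, a Notch-like inhibitor of differentiation, went from 5.05 and 4.76 FPKM to between 12.3 and 24.7 FPKM (1.90 ± 0.31, adjusted p = 4.22e-05). Plagl1, a zinc finger regulator of other imprinted genes, was at 10.1 and 12.6 FPKM, then 8.87 and 31.5 FPKM, then 56.5 and 55.8 FPKM (1.43 ± 0.30, adjusted p = 0.0008). Plagl1 and the posterior Hox genes shared the low value in the first 120 h library. Peg3 and Peg10, paternally expressed genes of placenta and embryo, were called higher, Peg3 not past the threshold without either 108 h library (adjusted p = 0.079 and 0.081).

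In the BMP and TGF-beta list 6 of 20 tested genes rose and 1 fell. For this and the next lists the shares over all genes were 10.5% higher and 5.04% lower. Id3, an inhibitor of differentiation and a BMP target, went from 23.4 and 24.5 FPKM to 57.1 and 43.9 FPKM and to 85.9 and 68.4 FPKM (1.37 ± 0.17, adjusted p = 4.1e-07), and Id2 rose likewise (1.22 ± 0.17). The ligands Tgfb2 (1.81 ± 0.38) and Tgfb3 (1.39 ± 0.18) rose and Tgfb1 fell (-0.92 ± 0.25), the last lost without either 108 h library (adjusted p = 0.072 and 0.084). Of 10 tested Hedgehog pathway genes 4 rose, among them the co-receptors Boc (0.75 ± 0.12) and Cdon (0.52 ± 0.11), and 1, Foxf1, fell (-1.23 ± 0.36), a call lost without either 108 h library (adjusted p = 0.063 and 0.16) or 120 h replicate 2 (0.086). Of 18 Eph receptors and ephrins 6 rose and 2 fell, and 2 rose and 1 fell without 108 h replicate 1, with the guidance receptor Epha3 at 0.16 and 0.17 FPKM at 108 h and at least 1.49 FPKM in both 132 h libraries. Of 4 tested neural crest genes 3 rose, of which Ets1 (1.54 ± 0.24) and Snai2 (1.52 ± 0.26), both also used in mesenchyme, kept the call without the first 120 h library.

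The counts of the next lists stand beside 10.5% of all genes tested called higher and 5.04% called lower. Of 36 cell cycle and DNA replication genes 3 rose and 0 fell, with a median of 0.04. Mki67, a marker of dividing cells, went from 32.7 and 35.0 FPKM to between 43.2 and 52.7 FPKM (0.51 ± 0.11). Of 22 cholesterol synthesis genes limma called 0, with 2 at an unadjusted p under 0.05 and a median of -0.05, and of 10 mitochondrial mRNAs 0, with 0 at an unadjusted p under 0.05. Of 19 p53 targets 5, among them Sesn2, a stress-induced regulator of growth, fell and 0 rose, with a median of -0.26. The number that fell was 3 without 120 h replicate 1, 1 without 108 h replicate 1 and 8 without 120 h replicate 2, and with the time course fitted alone 1 fell and 1 rose. Of 27 genes of glycolysis and hypoxia 4 fell and 1 rose, with a median of -0.15, and 1 fell without 108 h replicate 1. Aldoc, an aldolase, went from 34.3 and 33.9 FPKM to between 9.82 and 12.8 FPKM (-1.62 ± 0.22), while Ankrd37, a hypoxia target, was at 4.19 FPKM in the first 120 h library and listed at 0 in the other 5. Of 15 pluripotency genes only Dnmt3b was called, and it fell (-0.51 ± 0.06), but the list median was 0.56. In 8 of the 15 all 4 later libraries lay above both 108 h libraries and in 2 below, against 18.5% and 11.6% of all genes. With the time course fitted alone 2 pluripotency genes rose and 2 fell. Of 5 germ cell genes Prdm1 rose, and of 4 cardiac genes Tnnt2 rose. Of 5 genes of intermediate mesoderm Emx2 fell and Wt1 rose, though not past the threshold without 108 h replicate 1 (1.34 against 1.62). Of 5 extraembryonic genes 3 rose and 1 fell.

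Between 120 h and 132 h alone, the genes with a value above 0 in all libraries that rose most included C1qtnf3, a secreted protein of the C1q and TNF family, which was between 0.02 and 0.12 FPKM in the first 4 libraries and at 3.32 and 2.99 FPKM at 132 h (adjusted p = 1.61e-08). Ednrb, the endothelin receptor of neural crest and neural progenitors, went from 0.58 and 1.22 FPKM at 120 h to 8.55 and 4.05 FPKM (2.66 ± 0.58, adjusted p = 0.006). The 132 h libraries were above all 4 earlier ones for both. Rfx4 and Nrcam, genes of the neural tube, were also higher at 132 h than at 120 h, at adjusted p = 0.0012 and 0.0079. C1qtnf3, Rfx4, Nrcam and Aplnr were chosen after their values were seen. Apart from the immediate early genes, Lhx1 and Ptgds, the falls included Aplnr, the apelin receptor, from 21.0 and 7.30 FPKM to 4.14 and 5.15 FPKM (-1.40, adjusted p = 0.0078).

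Some of the largest differences were of genes listed at 0. Of the 12 genes with the largest rises at 5 FPKM or more, 7 (Fkbp14, Mapkapk5, Ahsa2, Rmnd5b, Ccdc115, Ccdc77 and Tatdn1) were listed at 0 in 1 or both 108 h libraries, and of the 12 largest falls Snord69, Snora64 and Ina were listed at 0 in some or all later libraries. Mapkapk5, a kinase gene, was listed at 0 in 108 h replicate 1 and was between 27.2 and 31.7 FPKM in the other 5, and Oip5, a centromere gene, was listed at 0 in both 132 h libraries and between 22.1 and 26.9 FPKM in the other 4. An exact 0 beside such values can be a failed estimate, and no fold is given for these genes. There were 348 tested genes with a 0 in at least 1 of the 6 libraries, of which 61 were among the 1858 called. The genes with the largest falls in FPKM apart from Snord69 were Eef1a1, Rpl32, Eef2 and Rpl8, of translation, with log2 differences from -0.46 to -0.27 against the median of 0.05, and those with the largest rises besides Mest, Igfbp5 and Cxcl12 were Rian, an imprinted noncoding RNA, and Fxyd6, a regulator of the sodium pump, at 0.86 ± 0.28 and 1.54 ± 0.23. Rian was not called without either 108 h library, 120 h replicate 1 or 132 h replicate 2 (adjusted p from 0.08 to 0.18), nor Rpl32 without 108 h replicate 2 (0.07).

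Wild-type libraries of the same series made outside the time course, 4 of them at 120 h, give the levels of the same genes in samples that the comparison did not use. They have no 108 h stage and are therefore given as levels only. Pax1 was between 13.2 and 26.4 FPKM, Cxcl12 between 105.1 and 169.7 FPKM, Msgn1 between 3.13 and 9.33 FPKM, Lhx1 between 1.26 and 2.56 FPKM and Hoxc10 between 6.72 and 12.8 FPKM in these 4. Their Pax1 and Cxcl12 values lay far above and their Msgn1 and Lhx1 values far below both 108 h libraries of the time course, and their Hoxc10 values lay between the 2 libraries at 120 h. Fos was between 0.30 and 0.62 FPKM and Kdr between 0.20 and 0.56 FPKM, both below 1 FPKM and far under the first 120 h library of the time course. In the time course Fos was also high at 72 h, at 12.9 and 14.6 FPKM, and at 96 h, at 6.48 and 53.6 FPKM, and was between 0.49 and 0.79 FPKM at 144 h and 168 h.

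**Figure D5:**
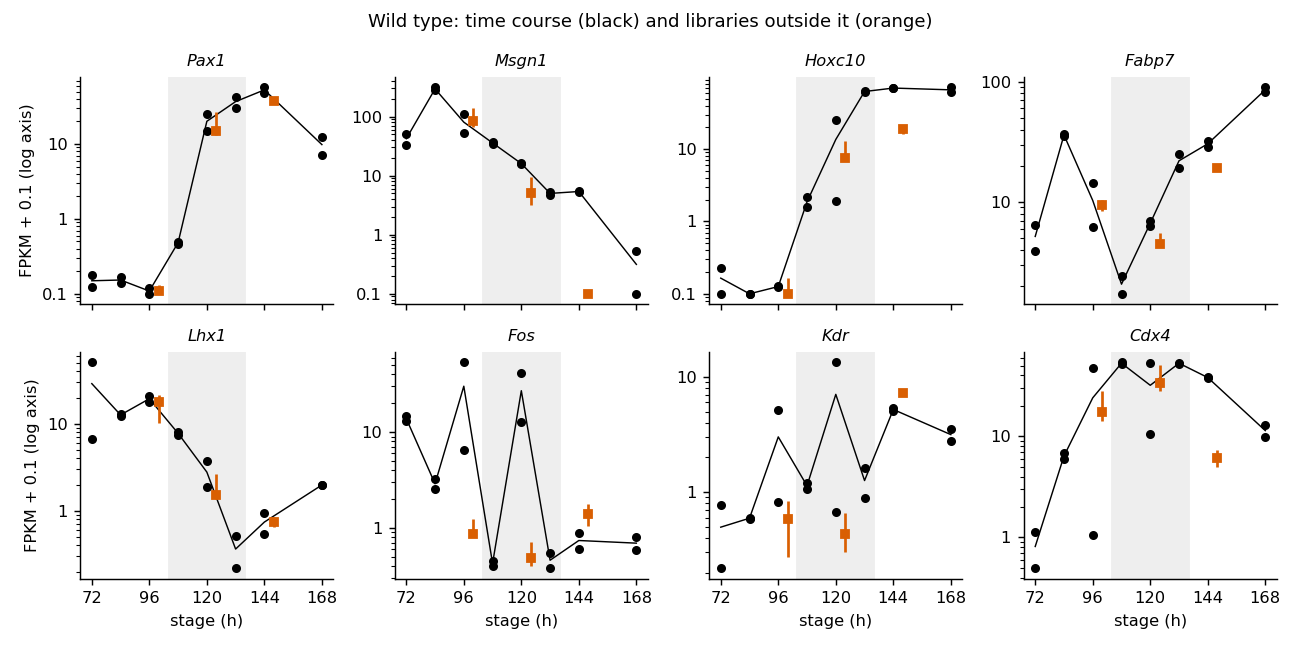
FPKM + 0.1 of 8 genes (y axis, log scale) in all wild-type libraries by stage in hours (x axis; black points the 2 libraries of each time-course stage, black line their mean; orange squares the median and orange lines the range of the libraries outside the time course, drawn 4 h to the right). Grey marks 108 h to 132 h. At 120 h the ranges of Pax1 overlap between both sets, Msgn1 is lower in the libraries outside the time course, and Fos is high only in the time-course libraries.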

How the data were processed

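Polyadenylated RNA was sequenced in 75-base paired-end reads, and per the study's methods the authors trimmed reads with cutadapt 1.16, aligned them with STAR 2.7.7a to mm10 using gene models based on Ensembl 102, and estimated FPKM per gene from uniquely mapped reads with Cufflinks 2.2.1 at default settings, which treat reads as unstranded although the library kit keeps strand. FPKM values were used as deposited. FPKM has no counts, but steps of low values in single-transcript genes put depth at 18.4 to 23.5 M fragments per library (96 to 98% of such values whole within 0.02 fragments), so that values near 3 fragments are imprecise. Intervals were not computed from these inferred depths.

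Values were analysed as log2(FPKM + 0.1) for the 11996 genes with a mean of 1 FPKM or more in either group. A linear model with 28 conditions was fitted to all 61 libraries with limma 3.58.1 in R 4.3.3, with Benjamini-Hochberg adjustment over all genes tested and a threshold of 0.05, and was tested on simulated data. Coordinates are 1-based, mm10. The groups, 32 gene lists and members were chosen with earlier results of these data known. Named genes were the 12 largest rises and falls among called genes at 5 FPKM or more in the higher group with no overlap between groups, the 5 largest each way in FPKM, the 5 largest each way between 120 h and 132 h, and members of the lists; further genes are marked as chosen after their values were seen. Alternatives changed the pseudocount, filter, scaling, variance trend, the libraries fitted, a replicate block and each library. Removing genes listed at 0 was added after seeing the data. Results of some genes are not reported here.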

Additional observations from a re-analysis of the deposited data

Results flagged for a closer look

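The 4 libraries at 120 h and 132 h were examined in 212 named genes. In 18 of them, 1 of the 4 lay further from the others than the 95% critical value of Dixon's test allows. Chance flags about 1 in 20 such groups if all 4 values come from a single distribution. Here they came from 120 h and 132 h, in genes many of which were named for their changes, so that this rate need not hold. In 13 of the 18 the library was the first at 120 h and the lowest. These were Hoxc4 at 7.39 FPKM, Hoxa6 at 0.786 FPKM, Hoxb6 at 5.84 FPKM, Hoxb7 at 15.5 FPKM, Hoxb9 at 52.0 FPKM, Hoxc5 at 2.10 FPKM and Hoxc6 at 6.57 FPKM, together with Cdx4 at 10.3 FPKM, Nkx1-2 at 10.1 FPKM, the Hedgehog pathway genes Boc at 29.1 FPKM and Gli2 at 12.3 FPKM, the laminin gene Lamc1 at 24.1 FPKM and the glucose transporter gene Slc2a3 at 80.7 FPKM. In the same library Ankrd37 was the highest, at 4.19 FPKM.

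The second 120 h library was the highest for Wnt3a at 9.80 FPKM and Ina at 2.55 FPKM, and the lowest for Sparc at 9.16 FPKM and Rmnd5b at 9.29 FPKM. Rmnd5b and Ina are listed at 0 in some of the 6 libraries.

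The difference from 108 h had opposite signs at 120 h and 132 h in 2 genes whose 2 later stages also differed from each other. For Egr1 the difference between 132 h and 120 h was -4.51 on the log2 scale (limma, adjusted p = 3.6e-06). For Oip5 the fitted value was -8.05 (adjusted p = 5.89e-05), but the gene is listed at 0 in both 132 h libraries, so that this value depends on the pseudocount and is no fold.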

How the results depend on the processing

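Counts of genes called are given in the order 120-132 h, 120 h and 132 h against 108 h, then 132 h against 120 h, and last the list members called in the first, with 1858, 1292, 1711, 422 and 155 as reported. They were 1059, 578, 988, 69 and 90 with the time course alone, and 437, 100, 425, 18 and 67 with only the 6 libraries compared. A replicate block in the time course gave 1085, 541, 1019, 49 and 90. The replicate numbers share no stated source, and deviations of same-numbered libraries correlated at 0.113, -0.0309 and -0.0206 between stages, so that no pairing was assumed. Leaving out 1 library at a time gave ranges of 732 to 1928, 519 to 1634, 824 to 1814, 38 to 1348 and 82 to 177. Between 132 h and 120 h a filter at a mean of 5 FPKM gave 253 genes and no filter gave 905. Counts stayed within 1.5 times under the pseudocounts of 0.01 and 1 FPKM, both scalings, the variance trend and the removal of genes listed at 0, and scaling moved the median of all genes by less than 0.1. With upper-quartile scaling the split was 1197 higher and 728 lower, 972 and 379, and 1007 and 736 for the first 3. None of the 166 called genes that the naming rules chose changed direction in the alternatives in which it was tested, and 100 kept the call on leaving out each of the 6 libraries. The 166 genes were chosen as called, and some for no overlap between groups, so that a kept direction was in part fixed by that choice. Low genes are limited by depth, and a stage of 2 libraries by its spread.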
